A study of Mus musculus with 16 samples.

Results

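Homeostatic microglial genes are the genes that microglia, the resident macrophages of the brain, express while they survey healthy tissue. The 33 genes described here were given as a list of symbols and all 33 had a probe set on the arrays. Each gene was read from its probe set with the highest mean over all arrays, and 31 of the 33 lay above the low-value filter and were tested among 12266 genes. Hpgds and Spi1 lay below it. Hippocampal RNA came from 16 female 3xTG-AD mice aged 14 months, with 8 on a diet containing pioglitazone (PIO) and 8 on a control diet, 1 array per numbered subject. PIO, a thiazolidinedione that activates the nuclear receptor PPAR gamma, was mixed into the food at 84 ppm, a daily dose near 18 mg/kg, from 10 months of age for about 14 weeks. Every animal of both diets carries the Alzheimer's disease model background, which combines mutant human APP and tau transgenes with a mutant presenilin 1 allele, and no animal without it was analysed here. The labels do not name the promoters of the transgenes. The questions were whether PIO feeding went with other levels of these genes and how they varied together from animal to animal.

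Microglia depend on signals from their surroundings. CSF1R, the receptor for CSF1 and IL-34, keeps them alive, and TGF-beta signalling with the transcription factors SALL1, PU.1 (encoded by Spi1) and IRF8 maintains their identity. Near amyloid plaques microglia are known to lower P2ry12 and Tmem119 while they raise genes driven through the receptor TREM2 and its adaptor TYROBP.

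Values are log2 expression, and differences are PIO minus control in log2 units with the moderated standard error (SE) of limma. Arrays lay on a common scale, with medians of 5.65 to 5.76. Arrays are numbered in their labels, and 2 PIO and 4 control arrays had numbers 1 to 6 while 6 PIO and 4 control arrays had numbers 10 to 24. A code at the end of the label was the same for 6 PIO and 5 control arrays. The meaning of neither is given in the sources used here. In PIO animals 14 and 15 the striatal marker list was highest, at median deviations of 0.85 and 1.09, and the hippocampal list was lowest, at -0.49 and -0.62, against -0.12 to 0.27 in the other 14 animals. Choroid plexus markers varied from -3.67 to 2.38 in PIO animals and from -3.16 to 2.47 in controls. Of the 10 hippocampal markers 9 were above the filter and 1 had no probe set with a single symbol. Results are therefore also given without PIO animals 14 and 15 and within the array ranges.

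Of the 31 tested microglial genes, 27 were lower with PIO and 4 were higher, with a median difference of -0.14, where 47.3% of all 12266 genes were lower and the median over all genes was 0.0045. After adjustment over all genes, limma called 0 members at 0.05 (0.00% of all genes), and the smallest adjusted p of a member was 0.658. Before adjustment 4 members had p under 0.05, Csf1r, Cd53, Fcrls and P2ry13, all lower. Of all genes 7.00% had such a p, 3.15% lower and 3.86% higher. A plain equal-variance test also gave 0 members after adjustment, and 3 before it (6.81% of all genes). No member had groups that did not overlap, which was the case for 0.0326% of all genes. The members vary together between animals, so their counts are not 31 separate observations. In whole-tissue RNA, fewer microglia and less RNA per microglial cell cannot be told apart.

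The shift was not even across the arrays. In arrays 10 to 24 the median of the members was -0.061 with 22 of 31 lower, where 40.6% of all genes were lower, and limma gave 0 members an unadjusted p under 0.05 (7.63% of all genes) or an adjusted one. In arrays 1 to 6, with only 2 PIO animals, the median was -0.24 with 26 lower, where 60.6% of all genes were lower. There 6 members, Cd53, P2ry12, Cd68, Siglech, Gpr34 and Fcgr3, were lower at an unadjusted p under 0.05 (3.73% of all genes). Every SE and p given for the diet difference in arrays 1 to 6 comes from a limma fit to all arrays. That fit held diet, array range and their interaction, so its variance is shared with arrays 10 to 24. The values for arrays 10 to 24 come from a fit to those arrays alone, so the SEs of the ranges are not like quantities. With the array range as a block the median was -0.12 (25 lower, beside 47.6% of all genes). Within the most frequent array code it was -0.12, with 26 lower (49.8% of all genes) and 1 unadjusted call (2.36%). With that code as a block it was -0.15, with 28 lower (47.4%) and 7 unadjusted calls (6.98%). Without PIO animals 14 and 15 it was -0.12, with 28 lower (51.0%) and 3 unadjusted calls (4.21%). With diet in the limma model, 24 of 31 members were lower in arrays 10 to 24 than in arrays 1 to 6 (49.2% of all genes). Of these, 3 had an unadjusted p under 0.05 (5.71%). The ranges differed in the controls. Their median member deviation from the gene means averaged 0.17 in arrays 1 to 6 and -0.038 in arrays 10 to 24. In PIO animals it averaged -0.058 in arrays 1 to 6 and -0.047 in arrays 10 to 24.

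**Figure D1:**
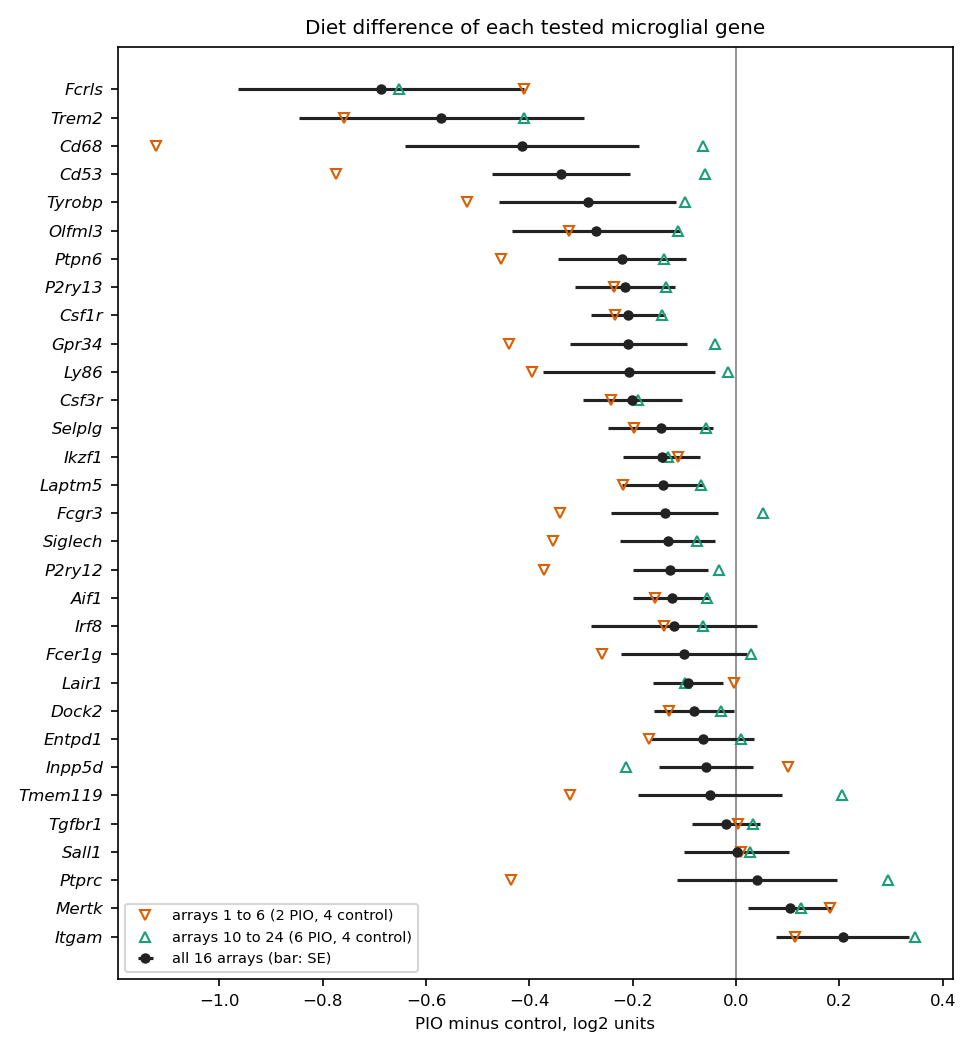
PIO minus control in log2 units for each of the 31 tested genes, with the SE as a bar for all 16 arrays and open triangles for arrays 1 to 6 (2 PIO, 4 control) and arrays 10 to 24 (6 PIO, 4 control). Fcrls lies lowest at -0.69 and Itgam highest at 0.21, and Cd68 and Cd53 lie far lower in arrays 1 to 6 than in arrays 10 to 24.

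Among the purinergic genes and G protein-coupled receptors, P2ry12 encodes the ADP receptor that steers microglial processes toward injury and P2ry13 a related ADP receptor. Gpr34 encodes a receptor for lysophosphatidylserine and Entpd1 the surface enzyme CD39, which breaks down extracellular ATP and ADP. All 4 were lower with PIO, by 0.065 to 0.21, and P2ry13 alone had an unadjusted p under 0.05. The regions before the start of P2ry12 and P2ry13, which lie on one strand of chromosome 3 with their windows 51854 bases apart, are printed as those of related receptors. They were taken from RefSeq (GRCm38.p6) at chr3:59262986-59263235 and chr3:59210883-59211132, both on the minus strand. Each runs 5′ to 3′ and holds the 250 bases before the start, with the ETS-type motif AGGAAGT, which resembles sites bound by PU.1, in capitals.
P2ry12: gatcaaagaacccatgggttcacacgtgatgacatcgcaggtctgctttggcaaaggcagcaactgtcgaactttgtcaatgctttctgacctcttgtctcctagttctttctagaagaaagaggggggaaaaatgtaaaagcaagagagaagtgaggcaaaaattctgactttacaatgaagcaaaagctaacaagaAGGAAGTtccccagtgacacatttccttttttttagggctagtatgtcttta
P2ry13: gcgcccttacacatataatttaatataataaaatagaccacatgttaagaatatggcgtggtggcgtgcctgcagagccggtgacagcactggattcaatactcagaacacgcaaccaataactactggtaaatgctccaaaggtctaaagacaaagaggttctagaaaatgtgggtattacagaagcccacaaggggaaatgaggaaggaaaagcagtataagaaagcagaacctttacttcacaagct
The motif stands once in the P2ry12 window, with its first base 52 bases before the start, and these letters are not in the P2ry13 window. Whether the motif bears on how either gene varied was not tested.

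P2ry12 ran from 9.43 to 10.03 with a median of 9.83 in PIO animals, against 9.81 to 10.12 with a median of 9.93 in controls. The groups overlapped for most animals, with PIO animals 9, 10 and 11 below the lowest control. Its difference was -0.13 (SE 0.072, limma adjusted p = 0.762), and -0.073 without PIO animal 10. In arrays 1 to 6 it was -0.37 (SE 0.10, limma adjusted p = 0.512) and in arrays 10 to 24 it was -0.034 (SE 0.065). The difference between the ranges, an interaction of 0.34, had an unadjusted p of 0.0191 and an adjusted p of 0.658 in limma. P2ry13 ran from 6.89 to 7.69 with a median of 7.51 in PIO animals, against 7.45 to 7.87 with a median of 7.65 in controls. PIO animals 14, 15 and 16 lay below every control, and 7 of 8 PIO animals lay below the control median. Its difference was -0.21 (SE 0.097, limma adjusted p = 0.705), and it was -0.14 (SE 0.14) in arrays 10 to 24 and -0.14 without PIO animal 16. With the array code as a block it was -0.24 at an unadjusted p of 0.00191 (limma adjusted p = 0.592). For Gpr34 the PIO animals ran from 7.77 to 8.57 and the controls from 8.14 to 8.85, and only PIO animal 11 lay below the controls. Its difference was -0.21 (SE 0.11), with -0.14 without PIO animal 11 and -0.041 (SE 0.15) in arrays 10 to 24.

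Csf1r, the survival receptor, had the smallest p of the members. It ran from 10.70 to 11.03 with a median of 10.85 in PIO animals, against 10.87 to 11.30 with a median of 11.10 in controls. All 8 PIO animals lay below the control median and 5 lay below the lowest control. The difference was -0.21 (SE 0.072), a 0.865-fold level, with an unadjusted p of 0.0100 and an adjusted p of 0.658 in limma. The direction was the same in arrays 1 to 6 (-0.23, SE 0.12), in arrays 10 to 24 (-0.14, SE 0.095), within the most frequent array code (-0.14) and without PIO animals 14 and 15 (-0.18, SE 0.081). Its 3 probe sets differed by -0.21, -0.15 and -0.14. Among controls, animals 1 to 4 (arrays 1 to 4) lay at 11.07 to 11.30 and animal 8 (array 13) at 11.30, whereas animals 5, 6 and 7 (arrays 10 to 12) lay at 10.87 to 10.92, within the PIO range.

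**Figure D2:**
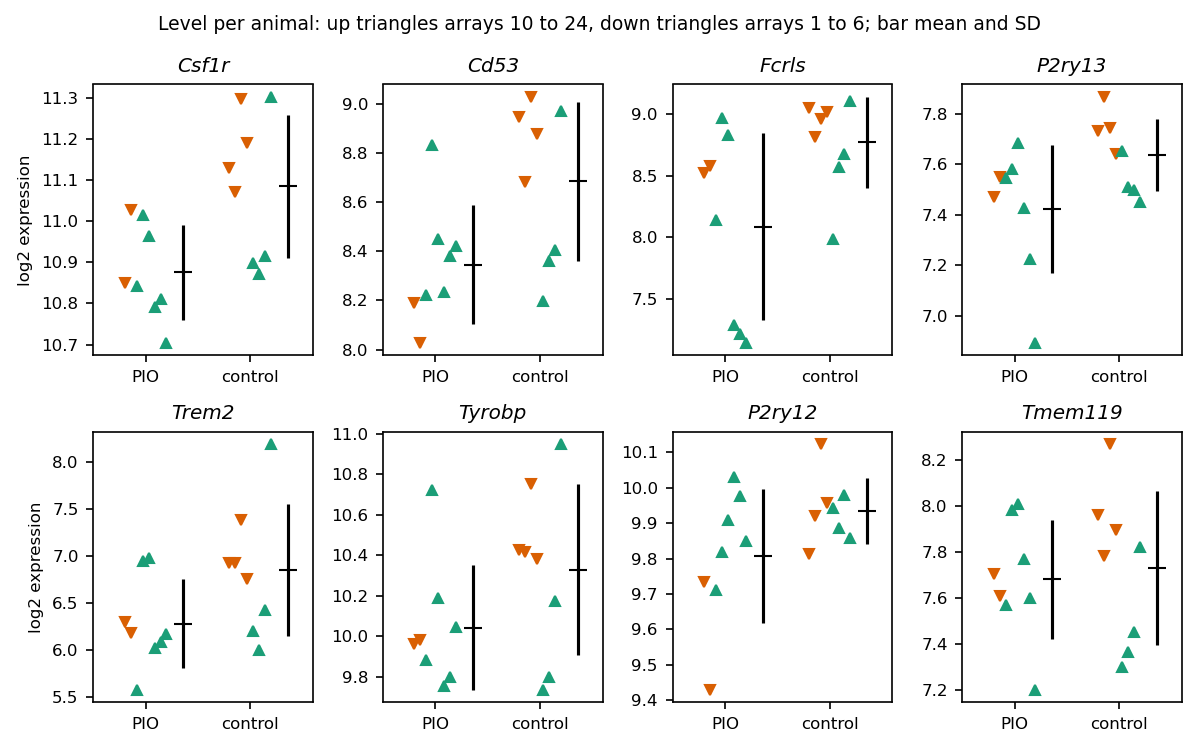
Log2 expression of 8 microglial genes in each animal, PIO left and control right in every panel, with up triangles for arrays 10 to 24, down triangles for arrays 1 to 6 and a bar for the mean and SD of 8 animals. Csf1r has 5 PIO animals below the lowest control, and Fcrls has PIO animals 14, 15 and 16 near 7.2, apart from all others.

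The other growth factor and phagocytic receptors gave differences of both signs. Mertk, a receptor that mediates uptake of dying cells, ran from 9.63 to 10.22 with a median of 9.78 in PIO animals, against 9.54 to 9.89 with a median of 9.74 in controls. PIO animals 10 and 13 lay above every control. The difference was 0.10 (SE 0.080, limma adjusted p = 0.808), with 0.048 without PIO animal 10 and 0.15 (SE 0.084) without PIO animals 14 and 15. Tgfbr1, a TGF-beta receptor chain, differed by -0.020 (SE 0.065), and by 0.0064 without those animals. Its range effect was larger than its diet effect, since arrays 10 to 24 were lower than arrays 1 to 6 by -0.17 with diet in the model (unadjusted p = 0.0102, limma adjusted p = 0.355). Csf3r, the receptor for granulocyte colony-stimulating factor, ran from 5.81 to 6.26 with a median of 5.96 in PIO animals, against 5.95 to 6.56 with a median of 6.08 in controls. There were 4 PIO animals below the lowest control. Its difference was -0.20 (SE 0.096, limma adjusted p = 0.718), and it was -0.19 (SE 0.13) in arrays 10 to 24.

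The adaptors, immunoreceptors and their phosphatases were lower in 9 of 9 tested genes, with a median of -0.14, and 1 of them, Fcrls, had an unadjusted p under 0.05. Fcrls encodes an Fc receptor-like protein that marks mouse microglia. It ran from 7.14 to 8.97 with a median of 8.33 in PIO animals, against 7.98 to 9.10 with a median of 8.89 in controls. PIO animals 14, 15 and 16 stood apart at 7.14 to 7.28, while the other 5 PIO animals, at 8.14 to 8.97, lay within the control range. The difference was -0.69 (SE 0.28), a 0.621-fold level (limma adjusted p = 0.681), the largest in size of any member, and it was -0.41 (SE 0.25) without PIO animals 14 and 15 and -0.29 within the most frequent array code. The region before its start is printed as that of the member with the largest difference, from RefSeq at chr3:87263525-87263774 of GRCm38.p6 on the minus strand, with the reverse complement of the same ETS-type motif in capitals.
Fcrls: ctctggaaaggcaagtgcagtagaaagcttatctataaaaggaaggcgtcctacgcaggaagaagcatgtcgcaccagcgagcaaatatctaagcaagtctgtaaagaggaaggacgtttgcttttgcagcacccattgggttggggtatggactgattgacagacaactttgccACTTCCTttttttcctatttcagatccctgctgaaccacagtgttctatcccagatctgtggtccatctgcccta
The motif begins 75 bases before the start.

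Trem2, the lipid-sensing receptor of plaque-associated microglia, ran from 5.58 to 6.98 with a median of 6.18 in PIO animals, against 6.00 to 8.20 with a median of 6.84 in controls. The groups overlapped, with 1 PIO animal below the lowest control, and control animal 8 had the highest value. Its difference was -0.57 (SE 0.28, limma adjusted p = 0.720), and it was -0.38 without control animal 8. A low Trem2 probe set, below the filter, differed by -0.019. Tyrobp, the adaptor through which TREM2 signals, ran from 9.76 to 10.72 with a median of 9.97 in PIO animals, against 9.74 to 10.95 with a median of 10.40 in controls. Its groups shared nearly their whole range, although 7 of 8 PIO animals lay below the control median. The difference was -0.29 (SE 0.17, limma adjusted p = 0.762), and -0.098 (SE 0.25) in arrays 10 to 24. Fcgr3, an activating Fc receptor for IgG, ran from 8.42 to 8.85 with a median of 8.60 in PIO animals, against 8.35 to 9.20 with a median of 8.79 in controls. It differed by -0.14 (SE 0.10), by -0.072 without control animal 3 and by 0.052 (SE 0.11) in arrays 10 to 24. Fcer1g, the gamma chain that Fc receptors share, differed by -0.10 (SE 0.12), with -0.16 without PIO animal 12 and -0.027 without control animal 8. Siglech, a microglial sialic acid-binding lectin, differed by -0.13 (SE 0.093), and by -0.072 without PIO animal 10. Lair1, an inhibitory collagen receptor, differed by -0.093 (SE 0.068) on its probe set of highest signal, while its other 2 probe sets differed by -0.34 (unadjusted p = 0.00491) and -0.15 (unadjusted p = 0.0265). The phosphatases that damp such receptors gave -0.22 (SE 0.12) for Ptpn6, which encodes SHP-1, and -0.059 (SE 0.091) for Inpp5d, which encodes SHIP1. Without control animal 8 the difference of Inpp5d was -0.0010.

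Of 3 tested transcription factors 2 were lower, with a median of -0.12. Sall1, a factor that in the brain's immune cells marks microglia, ran from 7.69 to 8.46 with a median of 8.21 in PIO animals, against 7.89 to 8.51 with a median of 8.22 in controls. Its difference was 0.0011 (SE 0.10, limma adjusted p = 0.999), and its sign turned under quantile normalization (-0.00660), with a common array median (-0.00352), with array weights (-0.00123), with array code as a block (-0.012) and without PIO animals 14 and 15 (-0.053). Irf8, a factor needed for microglial development, ran from 5.48 to 6.75 with a median of 6.10 in PIO animals, against 5.85 to 6.69 with a median of 6.11 in controls, and differed by -0.12 (SE 0.16), with -0.21 without PIO animal 13 and -0.033 without PIO animal 11. Ikzf1, a leukocyte zinc finger factor, differed by -0.14 (SE 0.075, limma adjusted p = 0.737). Spi1 lay near the low end of the array scale, at 3.03 to 3.38 in PIO animals and 3.15 to 3.56 in controls, and differed by -0.094 (SE 0.062) with no filter on low values.

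Of 11 tested surface, secreted and lysosomal leukocyte genes, 9 were lower and 2 higher, with a median of -0.14, and Cd53 alone had an unadjusted p under 0.05. Cd53, a leukocyte tetraspanin, ran from 8.03 to 8.83 with a median of 8.31 in PIO animals, against 8.20 to 9.03 with a median of 8.78 in controls. Its difference was -0.34 (SE 0.13, limma adjusted p = 0.681), with PIO animals 9 and 10 below every control. In arrays 1 to 6 the 2 PIO animals lay at 8.03 and 8.19 and the 4 controls at 8.68 to 9.03, a difference of -0.77 (SE 0.19, limma adjusted p = 0.390). Arrays 10 to 24 gave -0.061 (SE 0.16). The interaction of diet with array range was 0.71 (unadjusted p = 0.00917, limma adjusted p = 0.551). Cd68, a lysosomal glycoprotein of phagocytes, gave -0.41 (SE 0.23) over all arrays, with -1.12 (SE 0.35) in arrays 1 to 6 and -0.065 (SE 0.29) in arrays 10 to 24. Of the 31 members, 4 had an interaction p under 0.05 before adjustment, Cd53, Cd68, P2ry12 and Ptprc, all with a higher difference in arrays 10 to 24 (5.36% of all genes), and 0 after it (0.0245%).

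Tmem119, a surface marker that separates microglia from blood-derived macrophages, ran from 7.20 to 8.01 with a median of 7.66 in PIO animals, against 7.30 to 8.27 with a median of 7.80 in controls. It differed by -0.050 (SE 0.14, limma adjusted p = 0.961), and the sign turned in arrays 10 to 24 (0.20, SE 0.16). Laptm5, a lysosomal membrane protein of leukocytes, ran from 9.92 to 10.27 with a median of 10.05 in PIO animals, against 9.93 to 10.45 with a median of 10.23 in controls. Its difference was -0.14 (SE 0.078). Selplg, the P-selectin ligand, ran from 8.96 to 9.44 with a median of 9.29 in PIO animals, against 9.04 to 9.74 with a median of 9.42 in controls, and differed by -0.15 (SE 0.10), and by -0.094 without control animal 8. The secreted protein gene Olfml3 differed by -0.27 (SE 0.16), Ly86, which encodes MD-1, by -0.21 (SE 0.17), Aif1, which encodes IBA1, by -0.12 (SE 0.075) and Dock2, a Rac activator, by -0.082 (SE 0.077). Without control animal 1 the difference of Dock2 was -0.0047.

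Itgam and Ptprc were the members of this group with higher means in PIO animals. Itgam, which encodes the integrin chain CD11b of myeloid cells, ran from 3.83 to 4.78 with a median of 4.44 in PIO animals, against 3.77 to 4.48 with a median of 4.16 in controls, close to the filter at 3.58. PIO animals 11 and 15 lay above every control, and the difference was 0.21 (SE 0.13, limma adjusted p = 0.769). Ptprc, which encodes CD45, ran from 5.93 to 7.07 with a median of 6.51 in PIO animals, against 6.08 to 6.77 with a median of 6.38 in controls. Its difference was 0.040 (SE 0.16), and it was -0.050 without PIO animal 12. The sign differed between the ranges, at -0.44 (SE 0.24) in arrays 1 to 6 and 0.29 (SE 0.19) in arrays 10 to 24, with an interaction of 0.73 (unadjusted p = 0.0286, limma adjusted p = 0.715). Hpgds, a prostaglandin D synthase, lay below the filter at 2.54 to 2.69 in PIO animals and 2.58 to 2.79 in controls.

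The members' level spread more between animals than between diets. Relative to each gene's mean over 16 arrays, the median of the 31 members was -0.050 ± 0.11 in PIO animals and 0.066 ± 0.20 in controls (SD, n = 8 each), with ranges of -0.15 to 0.11 and -0.20 to 0.32. PIO animals 12 and 13 had 24 and 20 of 31 members above the gene mean and the other 6 PIO animals had 2 to 9. Among controls, animals 3, 1, 8, 2 and 4 had 28, 27, 26, 24 and 19 members above it, and animals 5, 6 and 7 had 6 or 7. Control animal 3 had the highest value of all 16 arrays for 11 members and control animal 8 for 9, whereas PIO animal 16 had the lowest for 7. Controls of arrays 1 to 4 and 13 were thus high, and controls of arrays 10 to 12 lay as low as most PIO animals.

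**Figure D3:**
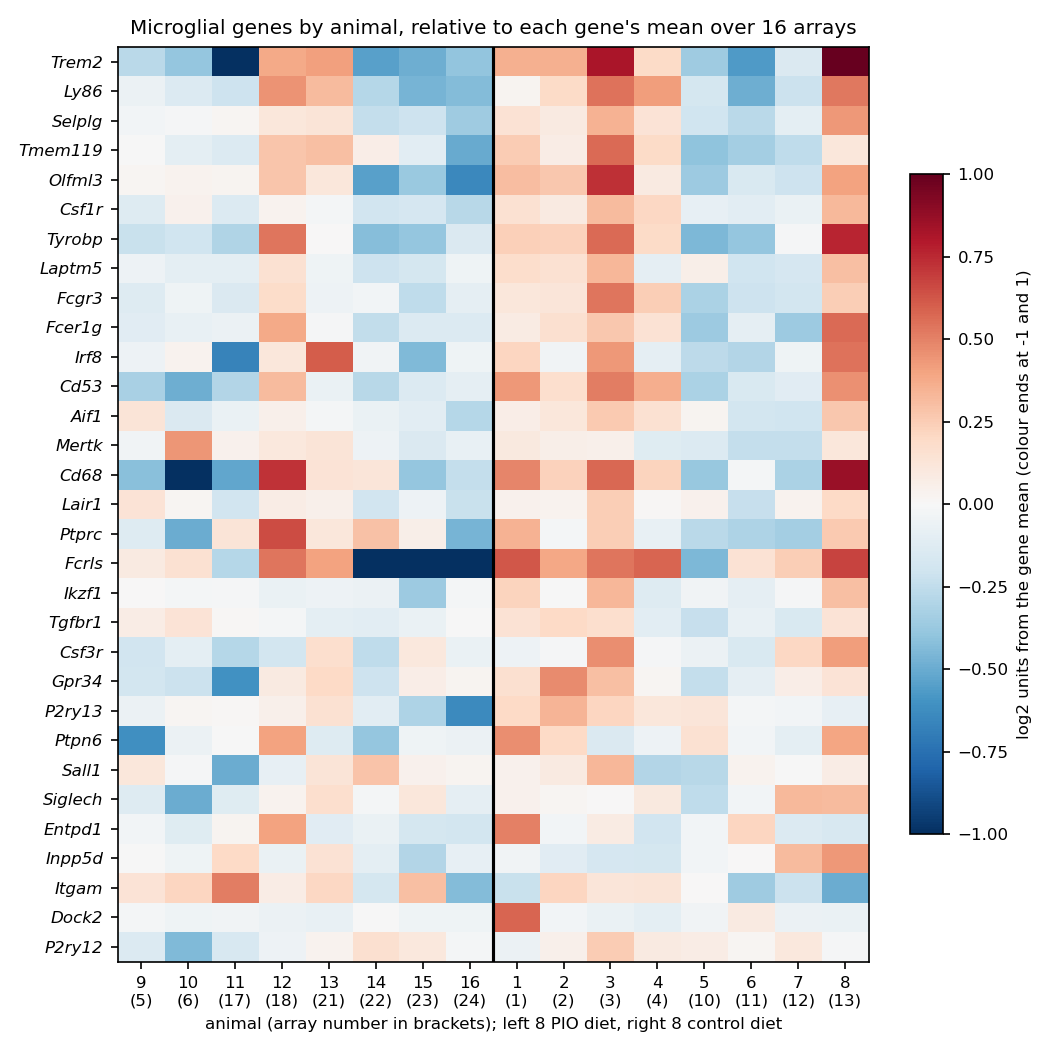
Each of the 31 tested genes (rows) in each animal (columns, PIO left and control right, array number in brackets), coloured by the log2 distance from the gene's mean over 16 arrays. Control animals 3 and 8 are high for most genes, with 28 and 26 of 31 above the mean, and control animals 5 to 7 are low.

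Most members varied together from animal to animal within a diet. Over the 465 pairs of members, the median Pearson r of deviations from the diet mean in 16 animals was 0.393, beside 0.0235 over all pairs of tested genes, and 38.7% of member pairs had an r over 0.5, beside 7.70% of all pairs. These correlations are a description, since all genes of an animal share its array and its dissection. The median was 0.430 for deviations from the mean of diet and array range, 0.448 within the most frequent array code and 0.425 without PIO animals 14 and 15. It was 0.267 in the 8 PIO animals and 0.545 in the 8 controls, a difference that was not tested.

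The tightest members were Trem2, Ly86, Selplg, Tmem119, Olfml3, Csf1r and Tyrobp, each with a median r to the other 30 members of 0.620 to 0.652. At the other end stood P2ry12, with a median r of -0.049 and a positive r to only 13 of 30 members. Dock2 (-0.0089), Itgam (-0.0051), Inpp5d (0.055) and Entpd1 (0.17) were also loosely tied, and Siglech, Sall1, Ptpn6 and P2ry13 reached 0.20 to 0.22. Of these, Dock2, Itgam and Ptpn6 had low signal, with means of 4.33, 4.27 and 4.24 beside the filter at 3.58. Dock2 had an SD of only 0.022 in PIO animals. Ikzf1, at a mean of 3.86, had a median r of 0.42, and P2ry12 had a mean of 9.87. The part of low signal in these r values was not tested. In arrays 10 to 24 the median r of P2ry12 was -0.28, that of Csf1r was 0.77 and that of Tmem119 was 0.65. Other loosely tied members moved with the choice of arrays, since in arrays 10 to 24 Ptpn6 reached 0.55, Siglech 0.44 and Inpp5d 0.41, whereas Sall1 (0.075), Entpd1 (0.13), P2ry13 (0.14), Itgam (-0.13) and Dock2 (-0.38) stayed low.

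**Figure D4:**
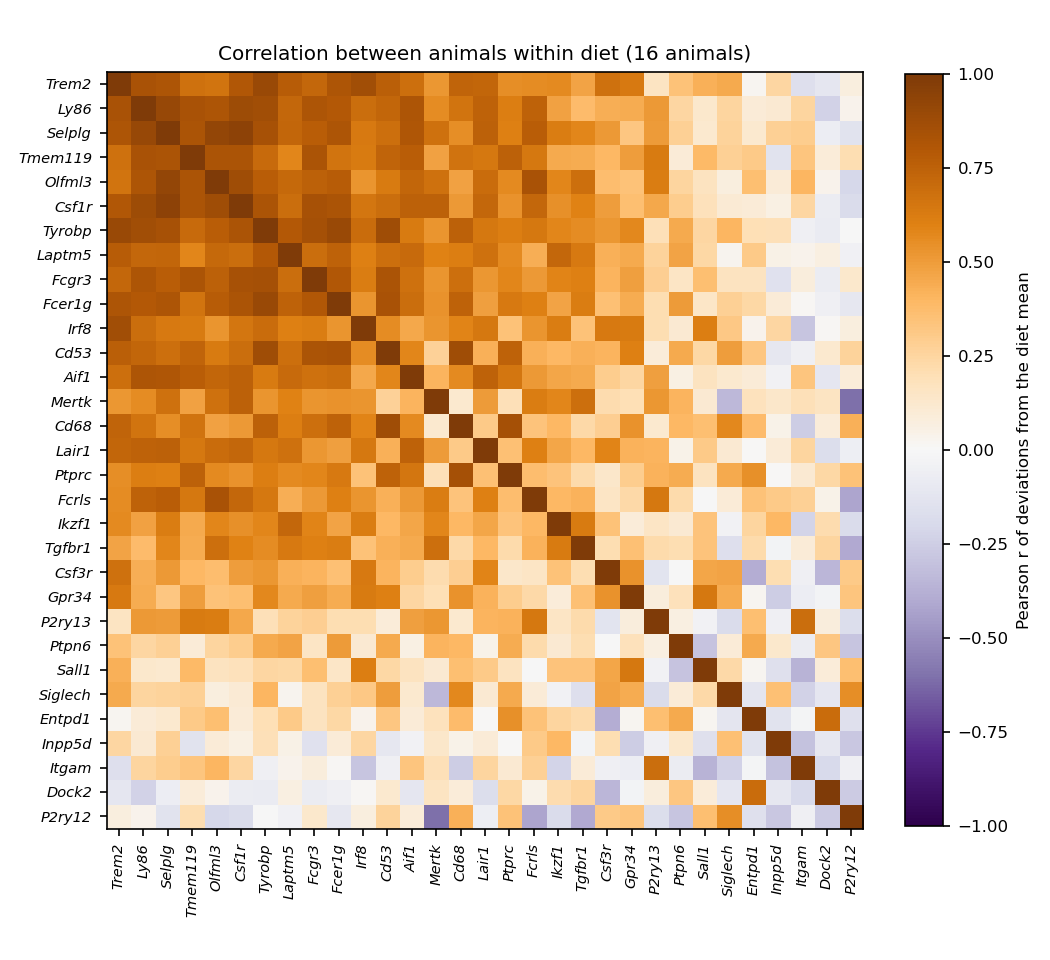
Pearson r between every pair of the 31 tested genes over 16 animals, after subtracting each diet's mean, with genes ordered by their median r to the others. The upper left block from Trem2 to Cd53 is positive almost throughout, and P2ry12, last, has a median r of -0.049.

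Known partners were compared as 13 pairs, with a two-sided permutation test of 100000 resamples that kept animals within their diet and with Benjamini-Hochberg adjustment over the 13. Each test was against no correlation, while the median r over all 465 member pairs was 0.393. Pairs outside the 13 reached similar r, such as Csf1r and Selplg (0.939), Olfml3 and Selplg (0.914) and Tyrobp and Cd53 (0.875). Whether partners vary together more closely than other members was not tested. Tyrobp and Trem2, adaptor and receptor, had an r of 0.897 (permutation p = 2e-05, adjusted p = 0.00026) and a rho of 0.926 (permutation p = 1e-05, the smallest these resamples give, adjusted p = 0.00013) over 16 animals. Without the 2 animals farthest from the median of Tyrobp the r was 0.861, within the most frequent array code it was 0.882 (11 animals) and in arrays 10 to 24 it was 0.901 (10 animals). Tyrobp and Fcer1g, adaptors of like function, had an r of 0.893 (permutation p = 0.00019, adjusted p = 0.00124) and a rho of 0.876 (permutation p = 0.0001, adjusted p = 0.00065), with r 0.786 without the 2 animals farthest from the median of Tyrobp (adjusted p = 0.0598) and a rho there of 0.851 (adjusted p = 0.0118). Within the most frequent array code r was 0.950 and in arrays 10 to 24 it was 0.883. For deviations from the mean of diet and array range r was 0.879 (adjusted p = 0.0416) and rho was 0.709, which did not pass (adjusted p = 0.0523).

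Fcer1g and Fcgr3, chains of 1 receptor complex, had an r of 0.798 (permutation p = 0.00129, adjusted p = 0.00559) and a rho of 0.826 (permutation p = 0.00146, adjusted p = 0.00633). The r was 0.832 without the 2 animals farthest from the median of Fcer1g, 0.817 within the most frequent array code and 0.880 in arrays 10 to 24 (adjusted p = 0.0502). Its rho did not pass without those 2 animals (adjusted p = 0.100), within the most frequent array code (adjusted p = 0.0607) or for deviations from the mean of diet and array range (adjusted p = 0.0523), where r passed (0.804, adjusted p = 0.0311). Csf1r and Aif1 had an r of 0.757 (permutation p = 0.00224, adjusted p = 0.00728) and a rho of 0.738 (permutation p = 0.00363, adjusted p = 0.0118). That relation lost its call without the 2 animals farthest from the median of Csf1r (r 0.622, adjusted p = 0.0981), within the most frequent array code (r 0.566, adjusted p = 0.329) and for deviations from the mean of diet and array range (r 0.693, adjusted p = 0.0774), and it was 0.888 in arrays 10 to 24 (adjusted p = 0.0208). By rho in arrays 10 to 24, of these 4 pairs only Csf1r and Aif1 passed (adjusted p = 0.0375).

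The other 9 pairs did not pass. P2ry12 and P2ry13 had an r of -0.164 (permutation p = 0.593, adjusted p = 0.658) and a rho of -0.215 (permutation p = 0.452, adjusted p = 0.587), P2ry12 and Tmem119 an r of 0.209, P2ry12 and Entpd1 an r of -0.152, and P2ry12 and Sall1 an r of 0.367. For deviations from the mean of diet and array range, P2ry12 and Sall1 had an r of 0.577 (permutation test, adjusted p = 0.0812). In arrays 10 to 24 they had 0.702 (adjusted p = 0.117). The r of P2ry12 and Tgfbr1 was -0.403 (adjusted p = 0.145), and it passed in arrays 10 to 24 (r -0.581, adjusted p = 0.0240). Spi1, read below the filter, had an r of 0.307 with Csf1r and 0.138 with Irf8, Inpp5d and Trem2 had 0.248, and Ptpn6 and Lair1 had 0.0402. In arrays 10 to 24 these r values were 0.554, 0.072, 0.486 and 0.605, and none of them passed.

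**Figure D5:**
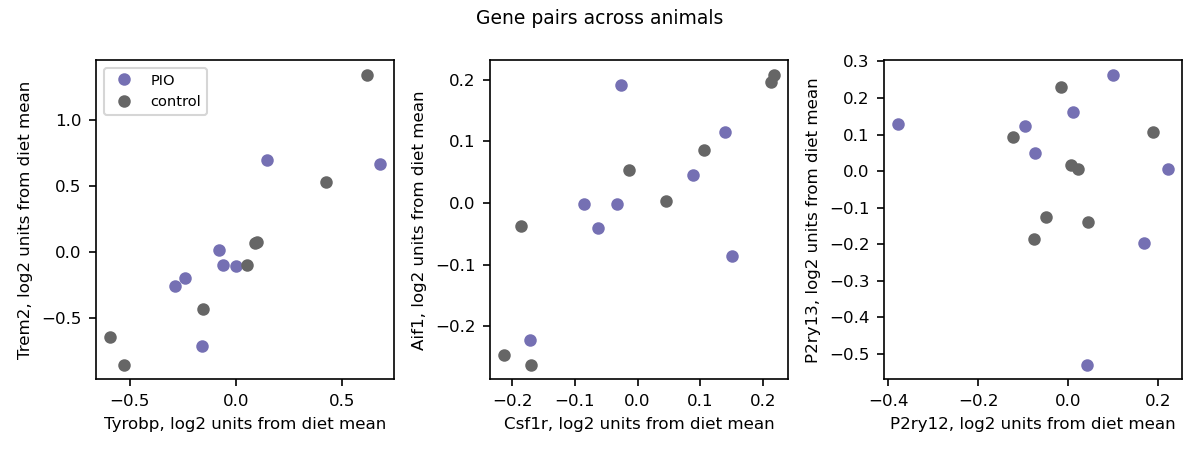
Log2 deviations from the diet mean in 16 animals for Tyrobp and Trem2, Csf1r and Aif1, and P2ry12 and P2ry13, with PIO and control animals in separate colours. The first pair follows a line (r 0.897), the middle pair does so less closely (r 0.757) and the last does not (r -0.164).

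The 10 genes outside the list with the highest median within-diet r to the members over 16 animals were C1qa (0.657), Cxcl13 (0.633), Ncf1 (0.623), Cst7 (0.612), H2bc21 (0.601), Ccl6 (0.601), C1qb (0.595), Cops9 (0.576), Mageh1 (0.576) and Gm11681 (0.567). C1qa, a chain of the complement protein C1q, was at 10.29 ± 0.20 in PIO animals and 10.49 ± 0.32 in controls (SD, n = 8 each). Cst7, a cystatin raised in plaque-associated microglia, was at 5.42 ± 1.77 in PIO animals and 7.00 ± 1.71 in controls (SD, n = 8 each), a difference of -1.57 (SE 0.80, limma adjusted p = 0.737).

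Among 32 other microglial genes, 22 were tested, 19 of them lower with PIO (47.3% of all genes), with a median of -0.17. Of these genes 0 passed limma's adjusted threshold. At an unadjusted p under 0.05 there were 5, all lower (3.15% of all genes). In arrays 10 to 24 the median of this list was -0.051, with 15 of 22 lower (40.6% of all genes). Cx3cr1, the fractalkine receptor, had the smallest p, at -0.44 (SE 0.094, limma adjusted p = 0.457) and -0.30 (SE 0.10) in arrays 10 to 24. Itgb2, the beta chain that pairs with CD11b, differed by -0.44 (SE 0.18) and Slco2b1, an organic anion transporter, by -0.20 (SE 0.092). Genes for the ligands and partners of CSF1R and of TGF-beta signalling were all measured. Of these, 9 of 19 were lower (47.3% of all genes), with a median of 0.012. Among them 1 gene, Axl, was lower at an unadjusted p under 0.05 in limma (-0.13, SE 0.059, 3.15% of all genes). Tgfbr2 differed by -0.18 (SE 0.11) and Cd200, a neuronal ligand that restrains microglia, by 0.17 (SE 0.11). In the plaque-responsive list 11 of 15 tested genes were lower (47.3% of all genes), with a median of -0.075. There Ctsz differed by -0.25 (SE 0.11), Axl, which is also in this list, by -0.13 (SE 0.059) and Timp2 by 0.20 (SE 0.054). Each had an unadjusted p under 0.05 in limma (7.00% of all genes).

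Markers of other blood-derived or border cells were sparse. Of 10 border macrophage markers 4 were above the filter, 2 of them lower (47.3% of all genes). Cd163, Lyve1, Ms4a7, Cbr2, Clec10a and Folr2 lay below the filter. The list medians ran from -0.94 to 0.89 in PIO animals and from -0.70 to 0.83 in controls. In arrays 10 to 24, 0 of the 4 were lower (40.6% of all genes), with a median difference of 0.62. The list medians there averaged 0.33 in PIO animals and -0.24 in controls, beside -0.78 and 0.28 in arrays 1 to 6. Only Ccr2 of 10 monocyte and neutrophil markers and Cd8a and Ms4a1 of 11 lymphocyte markers were above the filter. In each of these lists 7 markers lay below it and 2 had no probe set with a single symbol. Myelin genes were also lower with PIO, in 13 of 13 tested, with a median of -0.22, where 47.3% of all genes were lower. Of these, 7 had an unadjusted p under 0.05 in limma, where 3.15% of all genes were lower at such a p. The per-animal medians of the myelin list ran from -0.55 to 0.13 in PIO animals and from -0.14 to 0.31 in controls. They were lowest in PIO animals 15 (-0.55) and 14 (-0.21), in which the striatal list was highest. With the myelin list as a covariate the median of the microglial members was -0.10, and with the striatal list it was -0.087. With the choroid plexus list it was -0.16, beside -0.14 with no covariate. The part of tissue composition in the microglial differences was not tested beyond these fits.

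Across the 35 windows that RefSeq holds for 27 of the 33 members, the motif AGGAAGT on either strand stood in 8 windows (22.9%), beside 7.69% of all 32851 windows of the same length. Some members have several windows that overlap. The longer GAGGAAGT, which contains the shorter motif, stood in 2 (5.71%), beside 2.44% of all. The core AGGTCA that PPARs and other nuclear receptors bind stood in 3 windows (8.57%), of Aif1, P2ry12 and Trem2, beside 14.0% of all, and its direct repeat with any 1 base between the copies, the PPAR element, in 0 windows, beside 0.0335% of all. These matches describe the letters only.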

How the data were processed

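Affymetrix arrays of hippocampal RNA from 16 animals were analysed, 8 per diet. The authors deposited 1 log2 value per probe set and array, with the scale taken from the values, which run from 0.326 to 16.6. Per the submitters' processing notes, which give no roles, the tools were MAS5, GCRMA and R 2.7.1. No detection calls or scanner files were used here. Of 45101 probe sets, 64 controls were left out and 34945 had 1 symbol in the platform annotation. Probe sets with a mean above the 40th percentile (3.58) were kept, and that with the highest mean stood for a gene. PIO minus control was fitted with limma 3.58.1 (lmFit, then eBayes) under R 4.3.3, with Benjamini-Hochberg adjustment over 12266 genes. The fit was tested on simulated data. Alternatives changed the filter, probe set choice, normalization, array code, array range, covariates, prior, weights and animals. The members, lists and tests were chosen with earlier results of these data known, and nothing here is independent of them. Members described in full are the 6 of smallest p, the 2 of largest p and up to 2 of highest mean per role, with others added for co-variation. Other lists name up to 3 genes of smallest p. The number of arrays limits the precision. Nothing read here says whether the animals of a diet shared litters or cages.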

Additional observations from a re-analysis of the deposited data

Results flagged for a closer look

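A single animal lay far from the other 7 of its diet, by Dixon's test, in 9 of 62 groups of members and diets, where chance flags about 1 in 20 groups, and members that vary together are not separate groups. PIO animal 12 was high for Tyrobp (10.72), Fcer1g (8.56), Laptm5 (10.27) and Entpd1 (5.62), where the other PIO animals lay at 9.76 to 10.19, 7.93 to 8.17, 9.92 to 10.08 and 5.04 to 5.25. PIO animal 10 was low for Siglech (7.29, others 7.65 to 7.95) and high for Mertk (10.22, others 9.63 to 9.91). PIO animal 11 was low for Sall1 (7.69, others 8.10 to 8.46), PIO animal 15 was low for Ikzf1 (3.50, others 3.80 to 3.87), and control animal 1 was high for Dock2 (4.91, others 4.23 to 4.42).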

How the results depend on the processing

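No member passed an adjusted p of 0.05 under any alternative run. The count of lower members ranged from 25 (without control animal 3) to 28 and their median from -0.17 (without control animal 6) to -0.11 with 1 animal left out. Unadjusted calls, 4 of 31 in the full fit, were 11 without control animal 6 (6.87% of all genes), 9 without control animal 5 (7.77%) or PIO animal 12 (6.53%), 8 without control animal 7 (5.8%), 7 without PIO animal 13 (8.89%) and with array code as a block (6.98%), 1 in the most frequent array code (2.36%) and with the myelin covariate (4.19%), 1 lower and 1 higher with the striatal covariate (4.18%) and 0 in arrays 10 to 24 (7.63%). Small differences changed sign. Sall1 was -0.00660 after quantile normalization, -0.00352 with a common median, -0.012 with array code as a block, -0.054 in the most frequent code, -0.00123 with array weights, -0.020, -0.00832 and -0.054 with the myelin, choroid plexus and striatal covariates and -0.053 without PIO animals 14 and 15. Tgfbr1 was 0.023 as the mean of its probe sets, 0.022 with array range as a block, 0.033 in arrays 10 to 24, 0.025 and 0.024 with the myelin and striatal covariates and 0.0064 without PIO animals 14 and 15. Tmem119 was 0.017 with range as a block, 0.039 in the most frequent code and 0.20 in arrays 10 to 24. In arrays 10 to 24 Entpd1 was 0.010, Fcer1g 0.029 and Fcgr3 0.052. Inpp5d was 0.090 in the most frequent code and 0.021 with the myelin covariate, Irf8 was 0.00337 and Ptprc -0.10 with that covariate, and Ptprc was -0.012 without PIO animals 14 and 15. Laptm5 was 0.12 without probe sets of shared sequence, read from a probe set with a mean of 3.61, close to the filter at 3.58. Its probe sets with means of 10.12, 8.00 and 6.21 differed by -0.14, -0.19 and -0.12. With 1 animal left out, ranges crossed 0 for Entpd1 (-0.13 to 0.0029), Ptprc (-0.050 to 0.11), Sall1 (-0.041 to 0.072), Tgfbr1 (-0.054 to 0.0068) and Tmem119 (-0.11 to 0.027). Of the pairs, 4 of 13 passed by r and 4 by rho, with 3 and 1 for deviations from diet and range, 3 and 2 in the most frequent code, 4 and 2 in arrays 10 to 24 and 2 and 2 without the 2 farthest animals. P2ry12 and P2ry13 had r 0.013 in the most frequent code and 0.072 with no diet term, and in that code Spi1 and Irf8 had -0.13, Ptpn6 and Lair1 -0.036 and Inpp5d and Trem2 -0.40 (-0.18 without the 2 farthest animals). The cause was not tested. Leaving out PIO animals 14 and 15 was chosen after seeing the data. No paired analysis was possible because the diets share no animal number.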

Other observations

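Among other cell types, 10 of 12 astrocyte genes were lower with PIO, with a median of -0.064, where 47.3% of all genes were lower. The smallest p among them was that of Slc1a2, the main glutamate transporter (-0.12, SE 0.050). Aspa, Fa2h and Gpr37, genes of oligodendrocytes, were at -0.35 (SE 0.11), -0.29 (SE 0.092) and -0.29 (SE 0.11). Neuronal genes were lower in 4 of 10, with a median of 0.015, and endothelial and pericyte genes in 3 of 8, with a median of 0.030. Choroid plexus genes were higher in 10 of 10, with a median of 1.30, and striatal genes in 7 of 7, with a median of 0.30. Hippocampal markers were lower in 8 of 9, with a median of -0.16. None of these genes passed limma's adjusted threshold.

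The lowest Fcrls values, 7.14 to 7.28, were in PIO animals 14, 15 and 16, whose arrays are numbered 22 to 24.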
